A study of Mus musculus with 8 samples.

Results

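The genes analysed here are 10 transcripts that together set the shape, turnover and DNA content of mitochondria, measured in brown adipose tissue (BAT), the heat-producing fat depot of rodents, of lean and obese mice. They were taken by name: the mitofusins Mfn1 and Mfn2 and the inner membrane GTPase Opa1 for fusion, Dnm1l, Fis1 and Mff for fission, Pink1, Bnip3 and Bnip3l for mitophagy, and Tfam for packaging of mitochondrial DNA (mtDNA). All 10 were found by Ensembl identifier among the 31053 genes of the count table, and all 10 were among the 9264 genes that passed the filter on low counts. Bulk mRNA-seq gave 4 libraries from wild-type (WT) mice, labelled as C57BL6/J, and 4 from db/db mice, which carry the same strain label and in which mutated Lepr, the receptor for the satiety hormone leptin, leaves the animals obese and diabetic. All mice were 8-week-old males on normal diet, and tissue was taken after a fast. The question of the comparison was how obesity with loss of leptin signalling changes the BAT transcriptome. The study's sources differ on whether both genotypes came from 1 supplier, so whether supplier differs with genotype is not known, and as Lepr itself was at 0 counts in each of the 8 libraries, its transcript gives no check of the genotype.

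Mitochondria in brown adipocytes are densely packed and are remodelled when heat production is switched on or off. Mitofusins tether and fuse outer membranes, Opa1 fuses inner membranes and holds cristae together, and the dynamin-related GTPase encoded by Dnm1l is recruited by outer membrane proteins such as Mff and Fis1 to cut the organelle. Damaged or surplus mitochondria are removed by mitophagy, either through ubiquitin signals that start with the kinase Pink1 or through receptors such as Bnip3 and Bnip3l that bind the autophagy machinery directly.

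Total counts ran from 2374079 to 3240074 per library, and a single member held between 36 and 2492 counts in a library. Levels are given as CPM (counts scaled to a common library size) after TMM scaling, and a gene was called changed when its edgeR quasi-likelihood p, adjusted over all 9264 genes, was under 0.05. The labels name the tissue as BAT but the cell type as stromal vascular fraction, while Ucp1, the heat-producing uncoupler of mature brown adipocytes, stood at 1891.6 to 2753.5 CPM in WT and 1055.6 to 2027.4 CPM in db/db, so that mature adipocyte RNA was present. Many cell type markers moved with genotype, where 15.8% of all genes tested were higher and 11.9% lower in db/db. Of 26 skeletal muscle genes, 24 were higher in db/db, with a summed level of 590.8 to 2191.1 CPM in WT and 2929.5 to 15274.5 CPM in db/db, and no gene of that list was at 0 in all libraries. Of 15 macrophage genes, 14 were higher, with sums of 181.1 to 243.9 against 954.8 to 1731.0 CPM, and of 11 brown adipocyte genes, 7 were lower, with sums of 9568.1 to 11352.3 against 4037.8 to 7124.5 CPM. Markers shared by all adipocytes did not move one way, with 2 of 9 higher, 2 lower and sums of 16396.3 to 27390.9 against 18085.8 to 23402.3 CPM, whereas 5 of 7 white adipocyte genes were higher, with sums of 58.7 to 128.7 against 1830.6 to 2871.5 CPM. Other lists moved too. Fibroblast and progenitor genes were higher for 9 of 10 (sums of 678.6 to 836.5 against 1320.5 to 2853.7 CPM), smooth muscle and pericyte genes for 4 of 7 (233.3 to 270.4 against 377.6 to 637.2 CPM) and Schwann cell and nerve genes for 2 of 4 (119.5 to 203.8 against 367.0 to 571.0 CPM), while endothelial genes were lower for 3 of 9 (438.1 to 500.2 against 328.6 to 397.7 CPM). Of the erythroid genes 1 of 5 was higher, near the 15.8% of all genes, and of the neutrophil and mast cell genes 1 of 3. No lymphocyte gene had enough counts to be tested. The part of these cell types in the members' results was not tested except for skeletal muscle, whose score was used as a covariate. In bulk tissue, fewer cells of a type and less RNA per cell cannot be told apart. The library db/db 1 stood apart, with the highest muscle sum. It also had the lowest brown adipocyte sum (4037.8 CPM) and the highest macrophage (1731.0 CPM) and fibroblast and progenitor (2853.7 CPM) sums. The members, ratios and list counts are therefore also given without it.

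Of the 10 members, 4 were called, 1 higher and 3 lower in db/db. Over all genes tested 27.7% were called, 15.8% higher and 11.9% lower, so the share among the members (40.0%) rests on few genes and lies above that background by a margin that was not tested. Bnip3 showed the largest difference of the 10, Fis1 was the member that rose, and Mfn1 and Dnm1l fell by smaller amounts. Mfn2, Opa1, Mff, Pink1, Bnip3l and Tfam did not pass the threshold. The median log2 fold change of the members was -0.33, against 0.01 over all genes tested. The WT and db/db libraries did not overlap for 3 members, Bnip3, Fis1 and Mff, where 28.1% of all genes showed no overlap. Without the library db/db 1, 3 members were called, 1 higher and 2 lower, where 24.0% of all genes were called, and Dnm1l was the member lost, at -0.45 (edgeR adjusted p = 0.118). The 6 members not called stayed under the threshold without it, at 0.21 for Mfn2, -0.22 for Opa1, -0.39 for Mff, 0.17 for Pink1, 0.02 for Bnip3l and -0.45 for Tfam, with adjusted p from 0.0854 for Mff to 0.956 for Bnip3l.

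**Figure D1:**
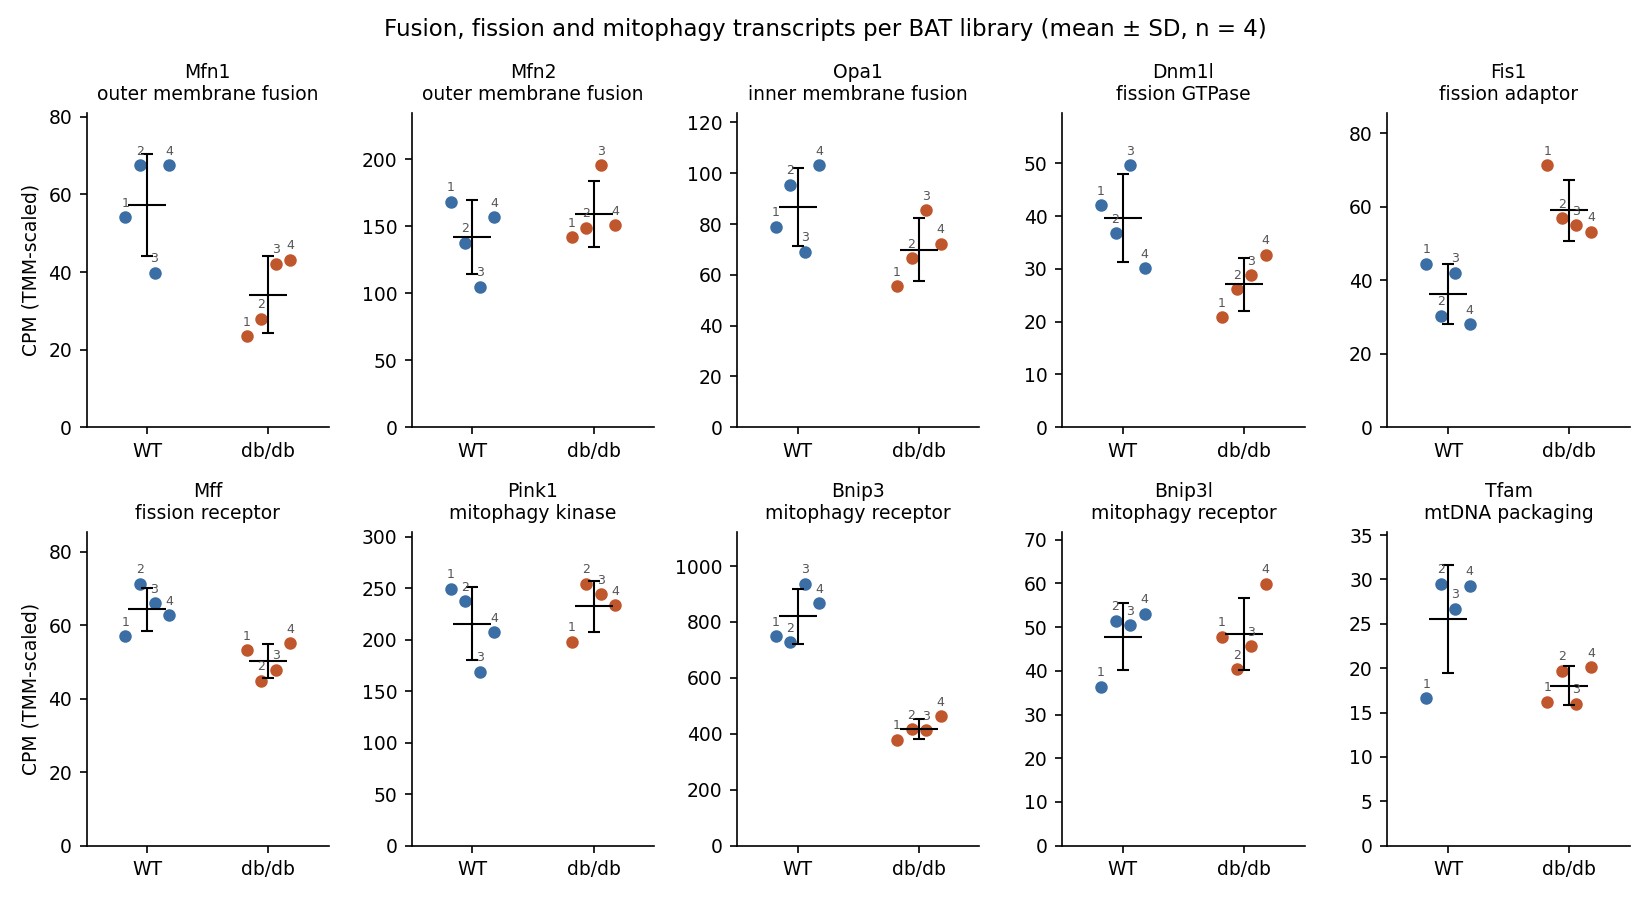
TMM-scaled CPM (vertical axis, from 0) of each member in the 4 WT (blue) and 4 db/db (orange) libraries, with the replicate number above each point and the mean ± SD in black. Bnip3 stands at 728.0 to 936.4 CPM in WT and 378.7 to 462.4 CPM in db/db with no overlap, whereas Mfn2, Pink1 and Bnip3l overlap broadly.

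Bnip3 (ENSMUSG00000078566, chromosome 7, 138890836 to 138909519, minus strand, mm10), an outer membrane mitophagy receptor that is also a classical target of hypoxia-inducible factors, was at 748.2, 728.0, 936.4 and 868.0 CPM in WT libraries 1 to 4 and at 378.7, 416.1, 412.7 and 462.4 CPM in db/db libraries 1 to 4. Every db/db library was below every WT library. The level fell from 820.2 ± 99.1 to 417.5 ± 34.4 CPM (SD, n = 4 each), 1.96-fold lower, with a log2 fold change of -0.97 (SE 0.13, 95% interval -1.25 to -0.70, edgeR adjusted p = 3.15e-05). Bnip3 passed the threshold in all 12 alternative settings and all 8 fits that left out a library, and without db/db 1 the log2 fold change was -0.94 (adjusted p = 2.9e-05). The summed brown adipocyte markers fell between the same groups, and their part in the Bnip3 result was not tested. The annotated antisense gene that overlaps an exon of Bnip3 had 0 counts in every library.

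The 250 bases upstream of the RefSeq start of Bnip3 (GRCm38.p6, the same build as mm10, chr7:138909507-138909756, minus strand) are shown because Bnip3 carries the largest difference and because this window holds several matches to the core of the hypoxia response element. Capitals mark each match to ACGTG or GCGTG on either strand.

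Bnip3: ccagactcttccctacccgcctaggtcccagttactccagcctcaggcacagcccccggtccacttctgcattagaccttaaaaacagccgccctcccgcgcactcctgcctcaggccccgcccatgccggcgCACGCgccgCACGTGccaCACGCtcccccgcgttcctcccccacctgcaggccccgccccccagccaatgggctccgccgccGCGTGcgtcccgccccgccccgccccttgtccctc

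The window held 5 such matches between 117 and 31 bases upstream of the start, of which the pair from -108 to -103 overlap on opposite strands and together spell the E box CACGTG. At least 1 match to ACGTG or GCGTG occurred in 38.6% of 32851 mouse promoter windows of 250 bases, and CACGTG in 6.02%; how often a window holds several matches was not counted. The Bnip3 window was 72.4% G and C, against a median of 52.4% over all windows. Among the 9 members with a window in the table (Bnip3l had none), the hypoxia core was also present in Mfn2, Pink1 and Tfam, and the E box only in Bnip3. A match describes letters and not a bound site.

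Bnip3l (ENSMUSG00000022051, chromosome 14, 66985239 to 67008877, minus strand), the closest relative of Bnip3 and likewise a mitophagy receptor, gave no such difference. It was at 36.4, 51.5, 50.4 and 53.1 CPM in WT and at 47.8, 40.4, 45.7 and 59.9 CPM in db/db. The groups overlapped, with means of 47.8 ± 7.69 and 48.4 ± 8.24 CPM (SD, n = 4 each) and a log2 fold change of 0.02 (95% interval -0.34 to 0.38, adjusted p = 0.953). Pink1 (ENSMUSG00000028756, chromosome 4, 138313409 to 138326307, minus strand), the kinase that marks depolarised mitochondria for removal, was at 249.3, 237.2, 169.1 and 207.1 CPM in WT and at 197.9, 254.2, 244.2 and 233.2 CPM in db/db. These levels overlapped too, and the log2 fold change was 0.11 (95% interval -0.19 to 0.41, adjusted p = 0.624). The intervals of Bnip3l and Pink1 leave out a fall as large as that of Bnip3. Pink1 shares exon sequence with annotated microRNA genes on the same strand, which makes its value less certain.

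Among the fission genes the members moved in opposite directions. Fis1 (ENSMUSG00000019054, chromosome 5, 136953275 to 136966234, plus strand), a small tail-anchored outer membrane protein that binds the fission machinery, was at 44.5, 30.4, 42.1 and 28 CPM in WT and at 71.3, 56.9, 55.0 and 53.2 CPM in db/db. Every db/db library lay above every WT library, and db/db 1 was the highest. The level rose from 36.3 ± 8.26 to 59.1 ± 8.27 CPM (SD, n = 4 each), 1.63-fold, with a log2 fold change of 0.70 (SE 0.18, 95% interval 0.33 to 1.08, edgeR adjusted p = 0.00686). Without db/db 1 it was 0.59 (adjusted p = 0.0269).

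Dnm1l (ENSMUSG00000022789, chromosome 16, 16312230 to 16358959, minus strand), which encodes the GTPase that constricts and cuts mitochondria, was at 42.1, 36.7, 49.6 and 30.1 CPM in WT and at 20.8, 26.1, 28.8 and 32.7 CPM in db/db. Of the db/db libraries, 3 lay below all WT libraries, and db/db 4 lay above WT 4. The level fell from 39.6 ± 8.25 to 27.1 ± 5.03 CPM (SD, n = 4 each), with a log2 fold change of -0.56 (SE 0.20, 95% interval -0.97 to -0.14, edgeR adjusted p = 0.0425). This call sat close to the threshold: it was lost in 6 of the 8 fits that left out a library, those without WT 1, WT 2, WT 3, db/db 1, db/db 2 or db/db 3, with adjusted p from 0.0557 to 0.123. An annotated antisense gene overlaps an exon of Dnm1l and had 0 counts in every library.

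Mff (ENSMUSG00000026150, chromosome 1, 82724890 to 82752394, plus strand), the main outer membrane receptor for the Dnm1l product, was at 57.1, 71.3, 66.1 and 62.8 CPM in WT and at 53.2, 44.9, 47.9 and 55.1 CPM in db/db. The groups did not overlap, yet Mff missed the threshold, with means of 64.3 ± 5.98 and 50.3 ± 4.72 CPM (SD, n = 4 each), a log2 fold change of -0.36 (SE 0.14, 95% interval -0.66 to -0.05) and an edgeR adjusted p of 0.0769. A gene annotated on the opposite strand shares exon sequence with Mff, so its counts are uncertain.

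Of the fusion genes, Mfn1 fell and its paralogue Mfn2 did not pass the threshold. Mfn1 (ENSMUSG00000027668, chromosome 3, 32529465 to 32579239, plus strand) was at 54.2, 67.5, 39.8 and 67.5 CPM in WT and at 23.5, 28, 42.1 and 43.2 CPM in db/db. The libraries db/db 1 and db/db 2 were below all WT libraries, whereas db/db 3 and db/db 4 were above WT 3. The level fell from 57.3 ± 13.2 to 34.2 ± 9.94 CPM (SD, n = 4 each), 1.69-fold lower, with a log2 fold change of -0.75 (SE 0.22, 95% interval -1.21 to -0.30, edgeR adjusted p = 0.0147). Without db/db 1 it was -0.61 (adjusted p = 0.04), and without WT 4 the call was lost at -0.67 (adjusted p = 0.0511).

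Mfn2 (ENSMUSG00000029020, chromosome 4, 147873599 to 147904704, minus strand), which also tethers mitochondria to the endoplasmic reticulum, was at 168.3, 137.6, 104.8 and 156.6 CPM in WT and at 141.7, 148.9, 195.5 and 150.7 CPM in db/db. The groups overlapped, and the log2 fold change was 0.16 (SE 0.16, 95% interval -0.17 to 0.50, adjusted p = 0.479). Opa1 (ENSMUSG00000038084, chromosome 16, 29579334 to 29654884, plus strand) was at 78.9, 95.4, 69.1 and 103.1 CPM in WT and at 55.4, 66.5, 85.5 and 72.2 CPM in db/db. Opa1 overlapped as well, with 2 db/db libraries below all WT libraries, a log2 fold change of -0.31 (SE 0.16, 95% interval -0.66 to 0.03) and an adjusted p of 0.171. Mfn2 and Pink1 lie on the same chromosome as Lepr, 46.1 and 36.5 Mb away.

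Tfam (ENSMUSG00000003923, chromosome 10, 71225464 to 71238280, minus strand), which coats mtDNA and starts its transcription, was at 16.6, 29.5, 26.7 and 29.3 CPM in WT and at 16.2, 19.7, 16.0 and 20.1 CPM in db/db. WT 1 lay within the db/db range, whereas the other WT libraries lay above it. The log2 fold change was -0.50 (SE 0.22, 95% interval -0.96 to -0.04, edgeR adjusted p = 0.0964), and without WT 1 it was -0.68 and passed the threshold (adjusted p = 0.0214). With 36 to 71 counts per library, Tfam was the member with the thinnest counts.

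The upstream windows of Mfn1 and Fis1 are shown side by side because both hold the core bound by GABP, a factor known for activating nuclear genes of mitochondria, although the transcripts moved in opposite directions. Capitals mark CCGGAAGT. The Mfn1 window is chr3:32529232-32529481 and the Fis1 window chr5:136953025-136953274 (RefSeq, GRCm38.p6, both plus strand).

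Mfn1: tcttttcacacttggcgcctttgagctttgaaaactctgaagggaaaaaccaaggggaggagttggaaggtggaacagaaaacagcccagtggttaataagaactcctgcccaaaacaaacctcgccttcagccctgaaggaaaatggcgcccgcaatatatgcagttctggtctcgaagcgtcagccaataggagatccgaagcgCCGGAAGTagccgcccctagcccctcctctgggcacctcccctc

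Fis1: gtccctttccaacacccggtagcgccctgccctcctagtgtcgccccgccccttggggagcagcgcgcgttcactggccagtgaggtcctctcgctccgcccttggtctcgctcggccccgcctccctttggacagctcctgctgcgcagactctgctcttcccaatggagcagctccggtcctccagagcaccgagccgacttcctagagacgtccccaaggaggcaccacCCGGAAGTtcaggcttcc

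The match runs from -44 to -37 in Mfn1 and from -18 to -11 in Fis1. Tfam held the same core from -47 to -40, so that 3 of 9 members carried it, where 2.88% of all windows did. The RefSeq start used for Tfam lies 236 bases from the annotated gene start, so its position is uncertain. Opa1 held a pair of overlapping matches to the NRF1 core GCGCATGC between -59 and -50, a motif found in 2.26% of windows. The ERR core AAGGTCA (4.08% of windows) and the FoxO core TGTTTAC (3.17%) occurred in 0 of the 9 members, and Dnm1l and Mff held no match to any of the 6 motifs. Where a member had several windows, as Dnm1l, Mff, Fis1 and Mfn2 did, only the window nearest its annotated start was read. The start used for Dnm1l lies 72 bases from the annotated one, and the bases after it occur in 0 annotated transcripts of the gene. Both strands were searched for every motif.

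Ratios within a library do not depend on how libraries are scaled. They were computed as the log2 ratio of counts with 2 added to each, and 4 ratios were tested with exact permutation of the genotype labels (two-sided), for which 0.0286 is the smallest p that 4 against 4 libraries allow. The Mfn2 to Mfn1 ratio was 1.62, 1.02, 1.38 and 1.2 in WT and 2.56, 2.38, 2.19 and 1.79 in db/db, which did not overlap. It was higher in db/db by 0.93 (means 1.31 ± 0.26 and 2.23 ± 0.33, SD, n = 4 each, exact permutation p = 0.0286, Benjamini-Hochberg adjusted over the 4 ratios 0.0571). The Bnip3 to Bnip3l ratio was 4.33, 3.80, 4.20 and 4.01 in WT and 2.97, 3.34, 3.15 and 2.93 in db/db. This ratio was lower in every db/db library, by a difference of -0.98 (means 4.08 ± 0.23 and 3.10 ± 0.19, SD, n = 4 each, exact permutation p = 0.0286, adjusted 0.0571). The Dnm1l to Opa1 ratio overlapped between the groups, with a difference of -0.23 (exact permutation p = 0.486) that was -0.01 without WT 3 and -0.44 without WT 4. The ratio of Tfam to the summed mtDNA-encoded transcripts differed by -0.59 (exact permutation p = 0.0571, adjusted 0.0762), with WT 1 at -14.11 among the db/db libraries, which spanned -14.52 to -14.05. None of the 4 passed 0.05 after adjustment. The ratios without overlap were already at the smallest possible p, so with the other ratios as they were their adjusted p could not be lower. Without db/db 1 the differences were 0.82 for Mfn2 to Mfn1, -0.94 for Bnip3 to Bnip3l, -0.21 for Dnm1l to Opa1 and -0.66 for Tfam to mtDNA-encoded transcripts.

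**Figure D2:**
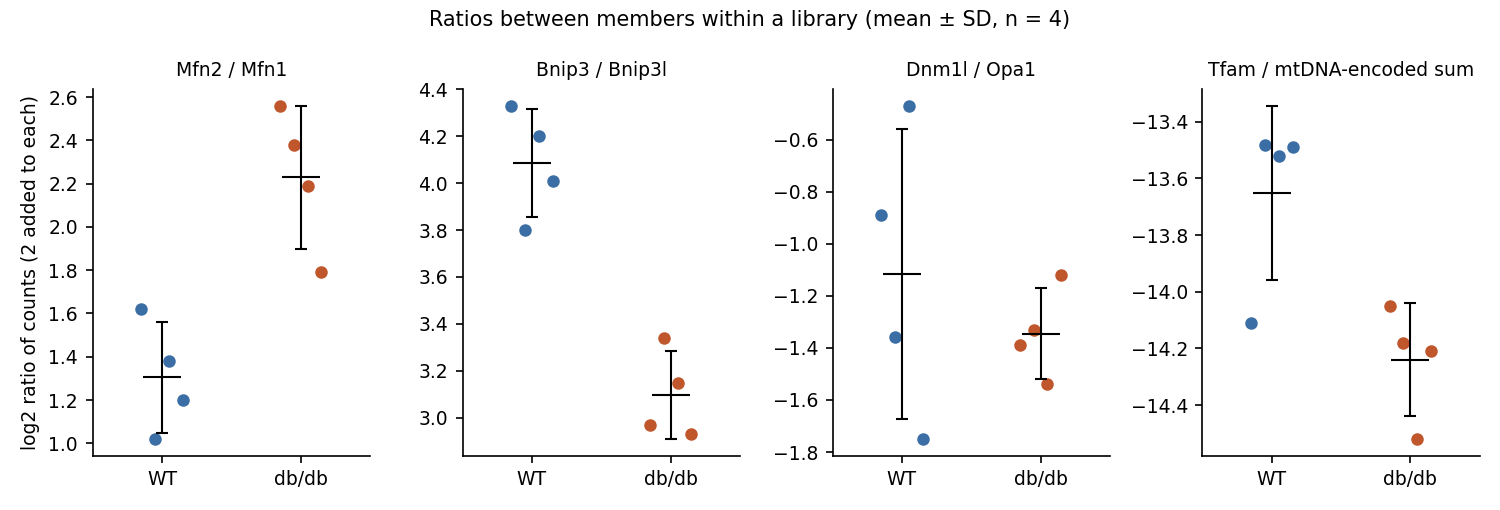
Log2 ratio of counts within each library (vertical axis, 2 counts added to each gene) for 4 pairs, in WT (blue) and db/db (orange), with mean ± SD in black. Mfn2 to Mfn1 and Bnip3 to Bnip3l separate the genotypes completely, at 1.02 to 1.62 against 1.79 to 2.56 and at 3.80 to 4.33 against 2.93 to 3.34, and the other ratios overlap.

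The members were also read against other nuclear genes for mitochondrial proteins. Of 28 such reference genes, 11 fell, 1 rose and 16 were not called (median log2 fold change -0.30), where 11.9% of all genes fell and 15.8% rose, and their summed level was 24932.3 to 29598.1 CPM in WT and 16654.4 to 23204.8 CPM in db/db. Scaling each library to these 28 genes shifted the median of all genes by 0.37 on the log2 scale, which called 29.1% of all genes, and 91.0% of all calls were then higher in db/db, against 57.1% with TMM. Relative to this reference, Bnip3 was still lower, at -0.62 (edgeR adjusted p = 0.00614), and Fis1 was higher, at 1.09 (adjusted p = 0.0035). Mfn2 and Pink1 now passed the threshold as higher, at 0.53 (adjusted p = 0.0333) and 0.47 (adjusted p = 0.0306). Mfn1 and Dnm1l no longer passed, at -0.40 (adjusted p = 0.175) and -0.22 (adjusted p = 0.499), and Opa1 and Mff, which lay within that shift of 0, came to 0.05 and 0.02 (adjusted p = 0.868 and 0.944).

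The libraries also differed in their level of skeletal muscle genes. Among the WT libraries, WT 4 had the highest muscle sum (2191.1 CPM) and the lowest Dnm1l and Fis1, but also the highest Opa1 and Bnip3l and, with WT 2, the highest Mfn1. Among the db/db libraries, db/db 1 had the highest muscle sum (15274.5 CPM) and the highest Fis1, and it was the lowest for Dnm1l, Mfn1, Mfn2, Opa1, Pink1 and Bnip3. The same library had the lowest sums of brown adipocyte genes (4037.8 CPM) and of the nuclear reference genes (16654.4 CPM). The part of each in its member levels was not tested. With a muscle score as a covariate, the number of genes called over the whole table dropped from 2568 to 724 (7.82%). The score spanned -1.33 to -0.05 in WT and -0.06 to 1.61 in db/db and barely overlapped between the genotypes, so the effects of score and genotype are hard to separate, and the cause of the drop was not tested. In that fit Bnip3 was the member still called, at -0.88 (edgeR adjusted p = 0.0136). Dnm1l was at -0.03 (95% interval -0.66 to 0.59, adjusted p = 0.971). Fis1 and Mfn1 were at 0.73 (adjusted p = 0.172) and -0.64 (adjusted p = 0.293), close to their values without the covariate but with wider intervals.

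**Figure D3:**
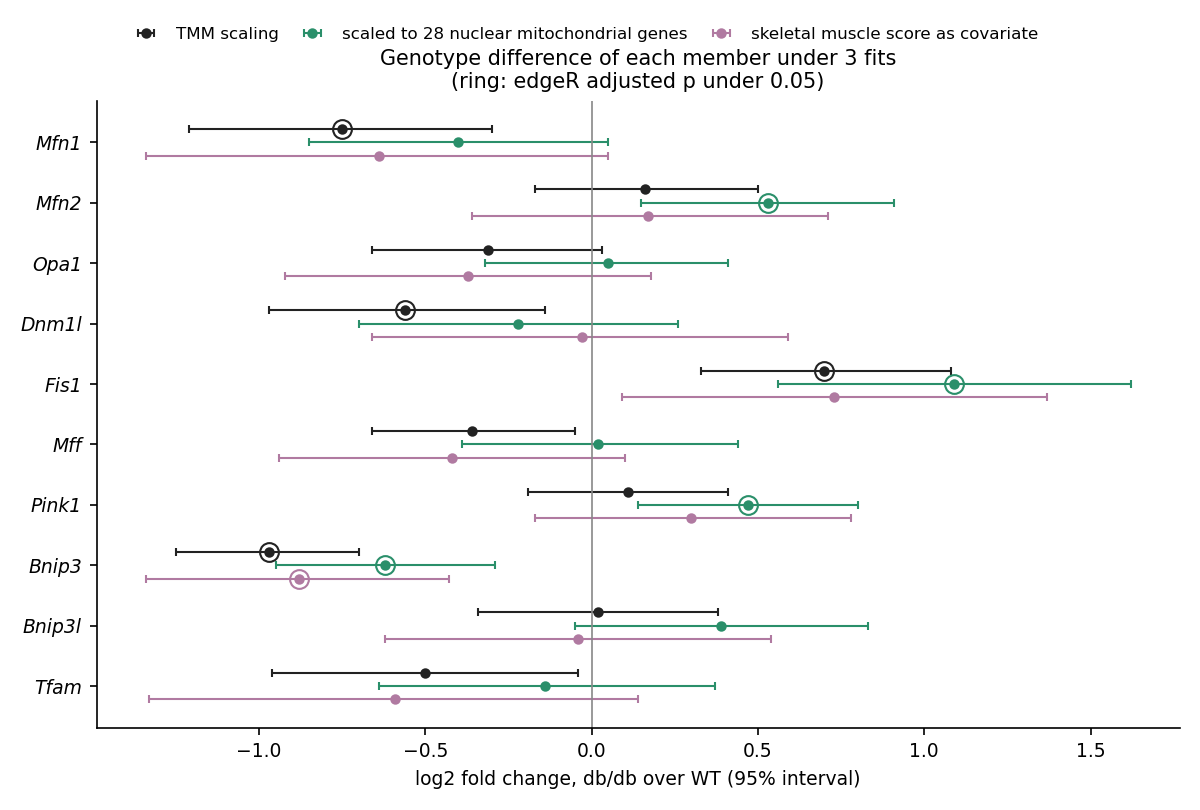
Log2 fold change of db/db over WT (horizontal axis) with its 95% interval for each member, under TMM scaling (black), scaling to 28 nuclear mitochondrial genes (green) and with the skeletal muscle score as covariate (purple), where a ring marks an edgeR adjusted p under 0.05. Bnip3 is ringed in all 3 fits, and Dnm1l moves from -0.56 to -0.03 with the covariate.

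**Figure D4:**
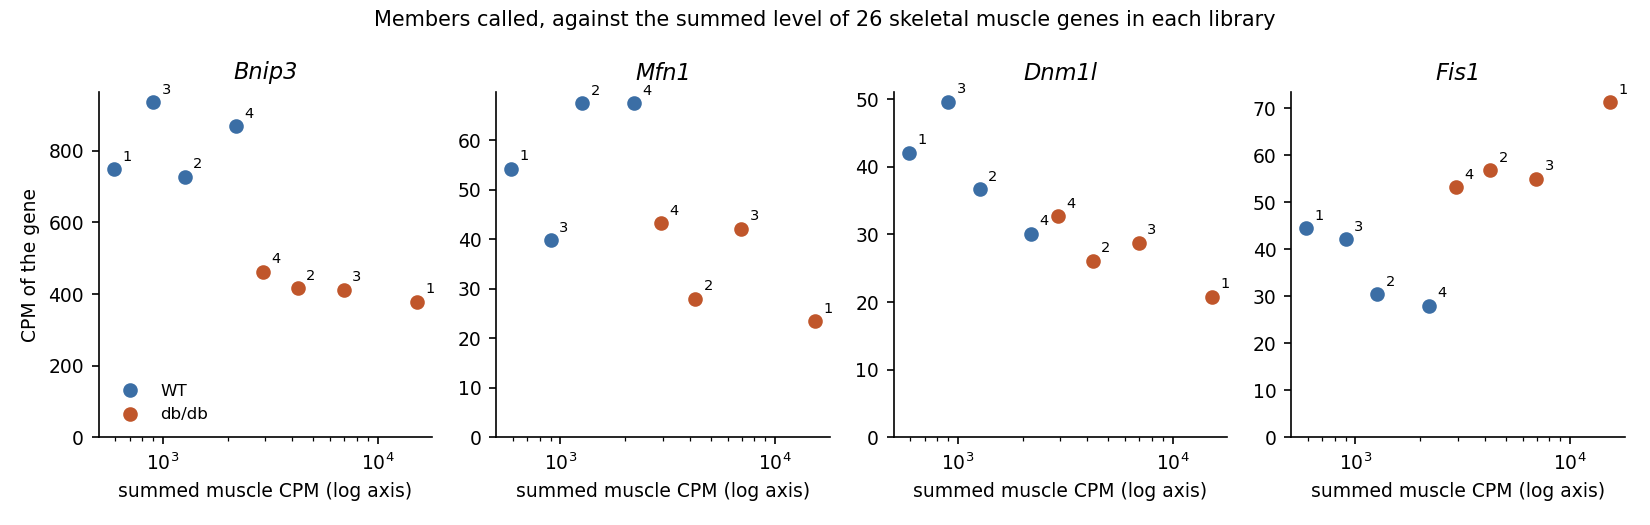
CPM of the 4 members called (vertical axis, from 0) against the summed CPM of 26 skeletal muscle genes (horizontal axis, log scale) in each WT (blue) and db/db (orange) library, with replicate numbers beside the points. All 4 db/db libraries lie to the right of the WT libraries, and Bnip3 forms 2 separate levels. Dnm1l is lowest in db/db 1, the library with the highest muscle sum and the lowest brown adipocyte sum.

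The wider pathway lists around the members, each kept apart from the members themselves, are given as counts of genes called. Without db/db 1, where 24.0% of all genes were called, the numbers called were 5 of 21 for fusion and cristae, 6 of 17 for fission, 5 of 23 for mitophagy, 6 of 32 for core autophagy, 2 of 16 for mtDNA maintenance, 6 of 13 for biogenesis regulators, 9 of 28 for nuclear reference genes, 4 of 11 for mtDNA-encoded genes and 9 of 18 for hypoxia. With all libraries, of 21 tested genes for fusion and cristae, 1 rose and 4 fell (median -0.26), a share called close to the 27.7% of all genes. Spg7, a subunit of the inner membrane m-AAA protease, rose from 77.9 ± 15 to 158.1 ± 9.72 CPM (log2 fold change 1.02, edgeR adjusted p = 5.45e-05). Mtch2, an outer membrane protein with roles in protein insertion and fusion, fell from 949.9 ± 97.8 to 468.6 ± 92.7 CPM (-1.02, adjusted p = 7.28e-05). Chchd3, a subunit of the MICOS complex that shapes cristae, fell as well, from 246.4 ± 3.26 to 139.1 ± 28.1 CPM (-0.82, adjusted p = 0.000309). The proteases that cleave Opa1 did not pass, with Yme1l1 at -0.09 (adjusted p = 0.742) and Oma1 at 0.83 (adjusted p = 0.0961), the latter on 8 to 58 counts per library.

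Of 17 tested genes for fission and mitochondrial transport, 2 rose and 3 fell (median -0.22), again near the background share. The genes that rose, Trak2 (0.56, edgeR adjusted p = 0.0163) and Kif5b (0.44, adjusted p = 0.011), encode an adaptor and a kinesin heavy chain that carry mitochondria along microtubules rather than divide them. Kif5b overlaps antisense genes and is uncertain. Mtfp1, an inner membrane protein that promotes fission, fell from 35.9 ± 12.4 to 16.9 ± 3.90 CPM (-1.09, adjusted p = 0.00395), and March5, an outer membrane ubiquitin ligase that acts on fission and fusion proteins, fell from 159.0 ± 13 to 87.5 ± 7.65 CPM (-0.86, adjusted p = 8.61e-05). Mief1, another receptor for the Dnm1l product, was at -0.53 (adjusted p = 0.132), uncertain because it shares exon sequence with another gene.

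Of 23 tested mitophagy genes other than the members, 3 were higher and 4 lower (median -0.05), near the 27.7% called over all genes. The receptor Fkbp8 (0.55, edgeR adjusted p = 0.038, uncertain because it overlaps Kxd1) and the anti-apoptotic outer membrane protein Mcl1 (0.58, adjusted p = 0.00523) were higher. The deubiquitinases Usp33 (-0.83, adjusted p = 0.0368, uncertain because of overlapping genes) and Usp8 (-0.50, adjusted p = 0.0128) were lower. The receptor Fundc1 was at 0.09 (adjusted p = 0.819) on 23 to 46 counts per library. Calcoco2 had 0 counts in all libraries. Of 31 core autophagy genes, 3 rose and 4 fell (median -0.06), a share below that 27.7%. The related initiating kinases moved in opposite directions, Ulk1 from 93.2 ± 14.1 to 50.3 ± 8.14 CPM (-0.89, adjusted p = 0.000422) and Ulk2 from 23.9 ± 2.79 to 41.1 ± 2.25 CPM (0.78, adjusted p = 0.00184). Wipi1, which binds the lipid made by the kinase Pik3c3, was higher (0.71, adjusted p = 0.0105), and Pik3c3 itself was lower (-0.68, adjusted p = 0.0363).

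**Figure D5:**
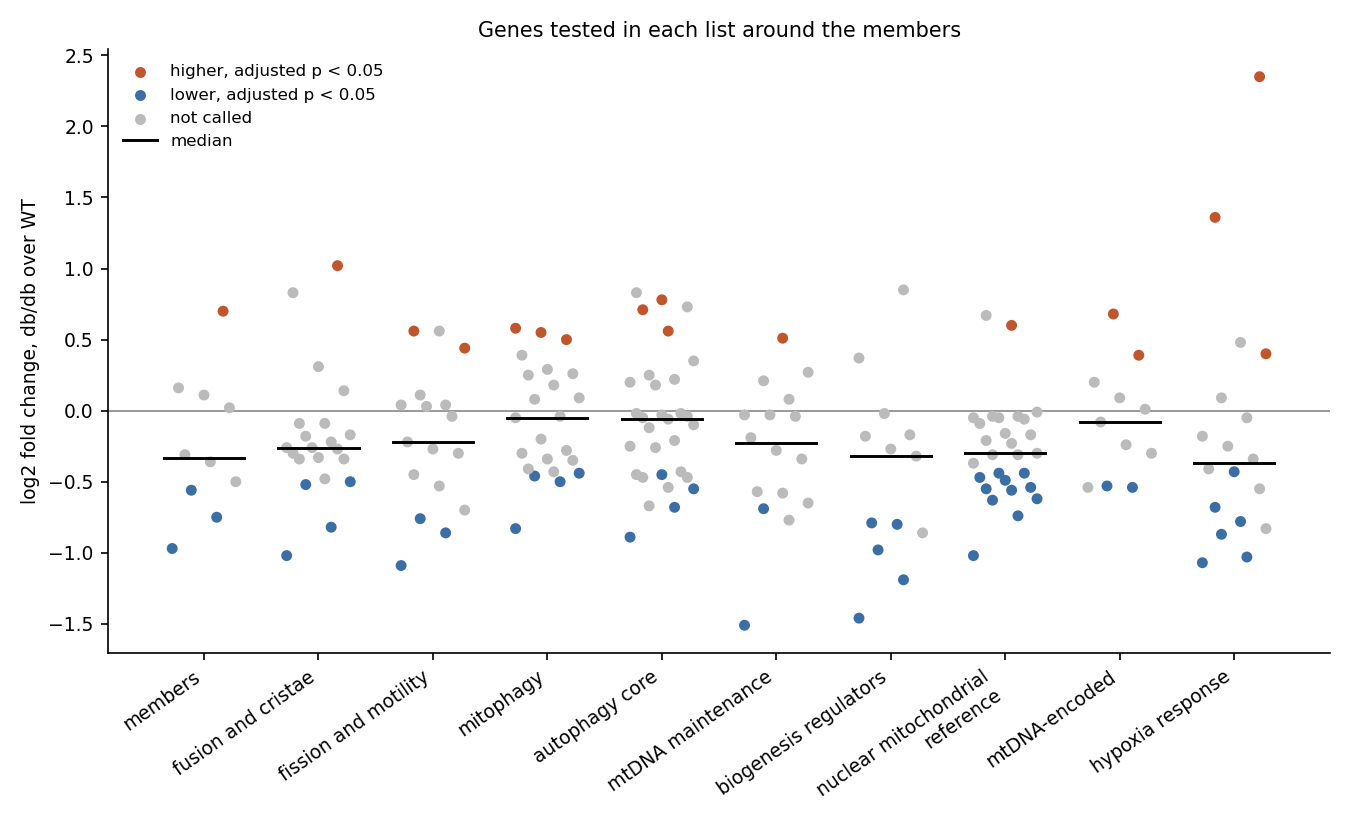
Log2 fold change of db/db over WT (vertical axis) for every tested gene of the members and of 9 lists around them (horizontal axis), with genes called higher in orange, called lower in blue, others in grey and the list median as a black line. The medians run from -0.37 for hypoxia response genes to -0.05 for mitophagy genes, and biogenesis regulators hold 5 genes called lower and 0 called higher.

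Of 25 genes for mtDNA maintenance and transcription, 16 were tested, of which 1 rose and 2 fell (median -0.23), a share below the 27.7% of all genes, and the others did not pass the filter on low counts. Slc25a33, a mitochondrial pyrimidine nucleotide carrier, fell from 23.4 ± 3.0 to 8.21 ± 1.62 CPM (-1.51, edgeR adjusted p = 0.000108), and Polrmt, the mitochondrial RNA polymerase that works with Tfam, fell from 18.9 ± 4.71 to 11.6 ± 2.37 CPM (-0.69, adjusted p = 0.0471). The helicase Twnk was at -0.77 (adjusted p = 0.0931). Mpv17, an inner membrane protein needed to keep mtDNA, was higher (0.51, adjusted p = 0.00932). Slc25a33, Twnk and Mpv17 share exon sequence with other annotated genes and are uncertain. Transcripts from mtDNA itself took 30.7 to 37.6% of the counts of a library, and of 11 tested 2 rose and 2 fell (median -0.08), where 15.8% of all genes rose and 11.9% fell. The rises were mt-Nd5 (from 3036.0 to 4860.9 CPM, 0.68, adjusted p = 0.0015) and mt-Co1 (from 3458.0 to 4517.8 CPM, 0.39, adjusted p = 0.0451). The falls were mt-Atp6 (from 60.3 to 41.5 CPM, -0.54, adjusted p = 0.0141) and mt-Co3 (from 51.6 to 35.5 CPM, -0.53, adjusted p = 0.0183). All were on transcripts that adjoin or overlap others. The summed mtDNA-encoded level in WT was 306685.9 to 347159.2 CPM, so both falls rest on a very small part of these counts and are uncertain.

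Of 13 tested regulators of mitochondrial biogenesis, 5 fell, 0 rose and 8 were not called (median -0.32), where 11.9% of all genes fell. Ppargc1a, the cold-induced coactivator that drives Tfam and respiratory genes, fell from 26.5 ± 7.30 to 15.2 ± 2.92 CPM (-0.79, edgeR adjusted p = 0.0158). Its relative Ppargc1b fell from 85.0 ± 18.2 to 37.5 ± 11.2 CPM (-1.19, adjusted p = 0.000491) and the fatty acid receptor Ppara from 94.1 ± 29.9 to 34.6 ± 19.4 CPM (-1.46, adjusted p = 0.00165), neither with any overlap between the groups. Among the nuclear reference genes, Pdha1, the catalytic subunit of pyruvate dehydrogenase, fell by 1.02 on the log2 scale (adjusted p = 5.25e-05, uncertain because it overlaps Map3k15), and the import channel Timm23 fell by 0.74 (adjusted p = 0.023, uncertain because a small nucleolar RNA gene overlaps it). The exception was Slc25a4, the ADP/ATP carrier known as the form of heart and skeletal muscle, which rose by 0.60 on the log2 scale (adjusted p = 0.00636); the summed skeletal muscle genes also rose between these groups, and their part in this result was not tested. Ucp1 fell from 2247.5 ± 387.2 to 1428.7 ± 457.1 CPM (-0.65, adjusted p = 0.0176).

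Since Bnip3 belongs to the hypoxia response, other genes of that response were read beside it. Of 18 tested, 3 rose and 6 fell (median -0.37), where 15.8% of all genes rose and 11.9% fell. Adm, a vasodilator peptide, rose from 5.25 ± 2.01 to 26.9 ± 11.3 CPM (2.35, edgeR adjusted p = 7.86e-05), on 6 to 112 counts per library. Ndrg1 rose from 34.2 ± 4.98 to 87.9 ± 21.1 CPM (1.36, adjusted p = 2.54e-05, uncertain because of antisense genes). Vegfa, the main angiogenic factor, fell from 106.7 ± 14.2 to 52.4 ± 15.9 CPM (-1.03, adjusted p = 0.000715), and the glycolytic regulator Pfkfb3 fell from 413.3 ± 41.1 to 226.5 ± 14.2 CPM (-0.87, adjusted p = 6.15e-05).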

How the data were processed

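BAT mRNA (4 WT and 4 db/db libraries) was sequenced through a commercial digital mRNA service. Per the study's methods, the authors trimmed reads with bbduk, aligned with STAR to mm10 and obtained gene counts from HTSeq-count, and these deposited raw counts were used here. The submitters' processing notes name Trimmomatic and HISAT2 instead, which the study's list of resources also holds. They also name DESeq2, which the study's methods give for differential expression. The sources were not reconciled. Annotation, use of strand, collapse of molecular identifiers and the handling of reads that match near-identical copies are not given in the sources used here, so PCR copies may be included and counts of overlapping genes are uncertain. A second table deposited by the authors holds log2 normalized counts and served as an alternative.

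Genotypes came from sample titles. Identifiers were matched to GENCODE M21 (30934 of 31053). Genes passed filterByExpr (minimum count 10, minimum total 15), were scaled by TMM and tested with edgeR 4.0.16 quasi-likelihood in R 4.3.3, genotype as the only term, with Benjamini-Hochberg adjustment at 0.05 over 9264 genes. CPM used the filtered library size times the TMM factor. Standard errors were derived from the F statistic. The members and lists were chosen with earlier results of these data known. Apart from the 10 members, named genes were the 2 largest rises and 2 largest falls per list with adjusted p under 0.05 and at least 5 CPM, plus 10 genes given whatever their result, of which 1 is not reported here; Calcoco2 was named after its values were seen. DESeq2 1.42.0, limma 3.58.1, 5 scalings, 2 filters, a muscle covariate, a replicate block and leaving out each library were alternatives. Procedures were tested on simulated data. Every pair of libraries of a genotype differed by more than counting noise. Since labels do not name the animals, p-values measure the spread between these libraries.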

Additional observations from a re-analysis of the deposited data

Results flagged for a closer look

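In 3 of 28 sets of 4 libraries (the members' levels and ratios in each genotype), Dixon's criterion set 1 library apart from its group, where chance alone gives about 1.4. Mfn2 in db/db 3 was at 195.5 CPM, against 141.7 to 150.7 CPM in the other db/db libraries. Bnip3l in WT 1 was at 36.4 CPM, against 50.4 to 53.1 CPM in the other WT libraries. The log2 ratio of Tfam to mtDNA-encoded transcripts in WT 1 was -14.11, against -13.52 to -13.48 in the other WT libraries. WT 1 also had the lowest muscle score of the 8 libraries (-1.33), and its part in these values was not tested.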

How the results depend on the processing

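Bnip3 was called in all 20 alternatives and Fis1 in all but the muscle covariate. Single-member comparisons with another setting kept direction and side of the threshold in 103 of 120, and those that left out a library in 69 of 80. With the muscle covariate, 7.82% of all genes were called, against 27.7% in the reported fit. In that fit the members called went from 4 to 1 (0 higher, 1 lower), and the list counts to 2 for fusion and cristae, 1 for fission, 0 for mitophagy, 1 for core autophagy, 1 for mtDNA maintenance, 0 for biogenesis regulators, 1 for nuclear reference genes, 1 for mtDNA-encoded genes and 3 for hypoxia. Scaled to nuclear mitochondrial genes, 3 members were higher and 1 lower, with 4 reference and 5 hypoxia genes called. Over all genes, 29.1% were then called, and 91.0% of those calls were higher in db/db. This scaling raises the median of all genes by 0.37 by construction, which alone takes Opa1 to 0.05 and Mff to 0.02. Testing every gene with at least 1 count called 3 fission genes, where 3170 of 16410 genes tested were called. This filter lets more genes of a list be tested than the reported fit, so its list counts are on another base. mtDNA maintenance counted 5 instead of 3 with that filter, with limma on the deposited log2 values, with upper quartile scaling, without mtDNA-encoded genes and with the replicate block. Bnip3l, at 0.02 in the reported fit and at 0.39 (adjusted p = 0.179) when scaled to nuclear mitochondrial genes, was at -0.02 with DESeq2, -0.01 with limma on deposited values and with upper quartile scaling, -0.005 without TMM, -0.03 with every gene and -0.04 with the muscle covariate. Dnm1l lost its call when at least 10 counts were required in every sample (adjusted p = 0.0617). Except for that shift, the cause was not tested.

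Leaving out one library gave 3 to 4 members called (1 higher, 2 to 3 lower), 3 to 6 mitophagy genes (3 without WT 1, 4 without db/db 3), 2 to 4 mtDNA-encoded genes (2 without db/db 4) and 5 to 9 hypoxia genes (5 without db/db 3). Over all genes, the share called in these fits ran from 2236 of 9665 (without WT 4) to 2477 of 9484 (without db/db 4). It was 2398 of 9644 without WT 1 and 2383 of 9587 without db/db 3. Bnip3l ran from -0.11 (without WT 1; -0.10 without db/db 4) to 0.10, and Pink1 from -0.01 (without WT 3) to 0.17.

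Same-numbered libraries belong to different animals, and the correlation of their deviations within genotype lay between -0.0757 and 0.0486, so the numbers do not pair them. With the replicate block 3 members were called, Dnm1l at an adjusted p of 0.0574 being the one lost, and 4 mitophagy genes. Over all genes, 2557 of 9264 were called in that fit. The 4 ratios kept their sign throughout, but Dnm1l to Opa1 ran from -0.44 (without WT 4) to -0.01 (without WT 3). With 36 to 71 counts for Tfam, depth limits small changes.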
